A study of Homo sapiens with 12 samples.

Results

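The genes described here are 10 components of the circadian clock: CLOCK, BMAL1, PER1, PER2, PER3, NR1D1, NR1D2, DBP, BHLHE40 and BHLHE41. They were taken by name from the 60656 gene IDs of the count table, each ID being matched to its symbol, and all 10 passed the filter on low counts that left 19636 genes for testing. The genes were selected on measured values as well as by name: the set was drawn up with earlier results of the same libraries in view, among them the difference in DBP between the hypoxic libraries of a line. Differences between the 2 hypoxic libraries of a line are therefore given as a description, with no test, and the changes with oxygen were also known in outline.

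The circadian clock is a feedback loop of transcription. CLOCK and BMAL1 form a heterodimer that binds E-boxes and switches on the PER and CRY genes, whose proteins return to inhibit the heterodimer. In a second loop the nuclear receptors NR1D1 and NR1D2 (REV-ERB alpha and beta) repress BMAL1 while ROR receptors activate it, and DBP is an output factor that binds D-boxes. BHLHE40 and BHLHE41 (DEC1 and DEC2) compete for E-boxes, repress the same loop and are also described as hypoxia-responsive genes in many cell types. CLOCK and BMAL1 are bHLH-PAS proteins, as are the oxygen-regulated alpha subunits of HIF (hypoxia-inducible factor) and their partner ARNT.

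RNA was sequenced from A2058, A375 and SKMEL-5, established human lines labelled as metastatic melanoma, each kept either in atmospheric oxygen (normoxia, the reference) or in 1% oxygen (hypoxia). Each of the 6 groups held 2 libraries, 12 in all, described as biological duplicates. No other treatment and no time of harvest or clock-synchronising step is named in the labels used here. The labels do not say whether duplicates were separate cultures, so p-values measure the spread between these libraries, which may be technical.

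Library totals ran from 33831569 to 54202819 counts, so that a gene with no count could have been present at up to 3 counts, or 0.0553 to 0.0887 CPM (counts scaled to a fixed library size), for counting error only. The oxygen labels were checked with CA9, a HIF target, which stood at 352 to 725 CPM in the 6 hypoxic libraries and at no more than 19.0 CPM in the normoxic ones. Within normoxia CA9 was not uniform, replicate 1 standing above replicate 2 in every line. The A2058 pair was at 19.0 and 0.0826 CPM, the A375 pair at 4.91 and 0.805, and the SKMEL-5 pair at 9.81 and 0.223. SOX10, a marker of the melanocyte lineage, was at 765 to 1684 CPM in every library, whereas TYR and MLANA, markers of pigmented cells, had no count in any A375 or SKMEL-5 library. A375 and SKMEL-5 libraries were close to each other: edgeR's quasi-likelihood test called 2 of 19636 genes (0.0102%) between these lines, and the differences between replicates, taken gene by gene, correlated between them at r = 0.80 in hypoxia and 0.58 in normoxia, a description across genes. Whether these 2 lines are independent was not tested, and results are also given for A2058 with each of them alone.

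In every line 1 of the 2 hypoxic libraries stood apart. The first principal component of log2 CPM over all tested genes, centred within each line, held 47.1% of the variance and gave scores of 72.7 to A2058 hypoxia 2, 132 to A375 hypoxia 1 and 108 to SKMEL-5 hypoxia 1, with all 9 other libraries below 0. These are called the libraries that stand apart, and the other hypoxic library of each line is called its partner. The 50 most abundant genes took 18.7%, 24.3% and 21.3% of counts in them (A2058, A375, SKMEL-5) against 13.0%, 14.3% and 14.5% in their partners. Mitochondrially encoded genes took 1.74%, 3.32% and 3.13% against 1.22%, 0.648% and 1.35%. The part of these differences in the results below was not tested.

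Known binding elements of the loop are printed first, because members sharing an element can then be compared with members that moved together. The 250 bases before each RefSeq start (GRCh38.p14) gave 14 windows for the 10 genes, 4 genes having 2 windows. These starts are not always the outermost ones: of the 11 sites found, 9 lie inside the gene's span in GENCODE 29, all but those of PER3 and NR1D1, and the BHLHE40 window lies wholly in annotated UTR. Sites are shown as 30 bases, 5′ to 3′ on the gene's strand, with the element in capitals: an E-box is CACGTG, an E-prime box CACGTT or its reverse complement AACGTG, and a D-box TTATGTAA, TTACGTAA or TTATGCAA or their reverse complements.
PER1 E-box (chr17:8152560-8152589, minus strand): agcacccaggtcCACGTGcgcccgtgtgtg
PER1 D-box (chr17:8152416-8152445, minus strand): agtgcccggcaTTATGCAAcccgcctcccc
PER2 E-prime box (chr2:238288790-238288819, minus strand): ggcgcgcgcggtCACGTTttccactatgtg
PER3 D-box (chr1:7784103-7784132, plus strand): gagcccgcgcgTTATGTAAcgcgccccggg
NR1D1 E-prime box (chr17:40100740-40100769, minus strand): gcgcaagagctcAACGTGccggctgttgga
CLOCK E-prime box (chr4:55546102-55546131, minus strand): tcaccactcgggCACGTTtggagcagcgcc
BHLHE40 E-box (chr3:4979187-4979216, plus strand): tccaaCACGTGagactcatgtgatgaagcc
BHLHE41 E-box (chr12:26125068-26125097, minus strand): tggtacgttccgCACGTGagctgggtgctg

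NR1D2 held an E-box at 2 places and a D-box, read TTACATAA on the gene's strand, within 1 window. It is shown in full because it was the only window of the 14 with more than 1 E-box. Capitals again mark these 3 elements.
NR1D2 window before an inner RefSeq start (chr3:23945871-23946120, plus strand): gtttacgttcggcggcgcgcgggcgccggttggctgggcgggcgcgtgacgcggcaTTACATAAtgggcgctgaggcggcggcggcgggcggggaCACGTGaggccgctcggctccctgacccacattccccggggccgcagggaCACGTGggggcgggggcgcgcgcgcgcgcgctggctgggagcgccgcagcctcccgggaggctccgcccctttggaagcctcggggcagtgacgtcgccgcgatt

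All motifs were searched on both strands, and a match describes letters, not a bound site. The E-box was in 4 of the 14 windows, against 6.34% of 35116 windows over all genes. The E-prime box was in 3 of 14 against 4.55%, and the D-box in 3 of 14 against 1.72%. The core of the HIF element, ACGTG, which lies within every E-box and E-prime box, was in 7 of 14 against 18.5%. The core of the ROR and REV-ERB element, AGGTCA, was in 1 window, that of PER1, against 12.1% of all, and the cyclic AMP element TGACGTCA was in none against 1.65%. None of these letters was found in the DBP and BMAL1 windows, which says only that they are not in those 250 bases.

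Levels in normoxia set the starting point. Per kilobase of exon, BHLHE40 was the most abundant of the 10 at 15.3 ± 7.75 CPM per kb (SD, n = 6 normoxic libraries of 3 lines), followed by NR1D1 at 8.50 ± 2.64 and NR1D2 at 6.30 ± 3.41. PER1 stood at 4.70 ± 0.634 and CLOCK at 3.94 ± 1.46 CPM per kb. DBP at 1.73 ± 1.3, BMAL1 at 1.65 ± 0.182 and BHLHE41 at 1.46 ± 0.802 were lower, and PER3 at 0.733 ± 0.567 and PER2 at 0.655 ± 0.341 were the lowest. In all 9 pairs of neighbours in this order the ranges over the 6 libraries overlapped, so that neighbours cannot be placed. Exon length is the union of all exons annotated for a gene, for DBP 6544 bases. Where this union exceeds the transcripts present, the level per kilobase is understated. The lengths of the transcripts present were not measured, so the order is approximate for genes farther apart as well.

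**Figure D1:**
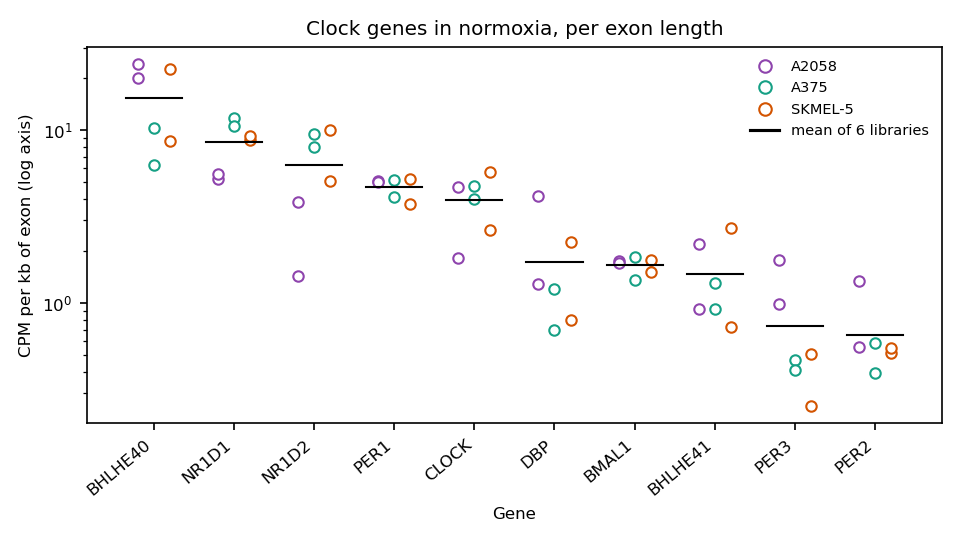
Level of each clock gene in the 6 normoxic libraries, as TMM-scaled CPM per kilobase of exon (union of annotated exons) on a log axis, with open circles for libraries coloured by line and a bar for their mean. BHLHE40 has the highest mean (15.3) and PER2 the lowest (0.655), and neighbouring genes overlap.

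The activators CLOCK and BMAL1 did not pass the test with oxygen, and both were lower in the library that stood apart than in its partner in every line. Gene positions are those of GENCODE 29 (GRCh38), and levels from here on are TMM-scaled CPM, with replicates 1 and 2 in that order. CLOCK (ENSG00000134852.15, chr4:55427903-55547138), the histone acetyltransferase of the heterodimer, stood at 21.3 and 55.2 CPM in A2058 normoxia and at 44.1 and 22.4 CPM in A2058 hypoxia. In A375 its level was 46.8 and 56.0 CPM in normoxia and 17.2 and 52.3 CPM in hypoxia. In SKMEL-5 it was 31.2 and 67.4 CPM in normoxia and 24.9 and 48.0 CPM in hypoxia. The low hypoxic value of each line was the library that stood apart, but A2058 normoxia 1 was as low, and hypoxic and normoxic values overlapped in every line. A2058 normoxia 1 also had the highest share of mitochondrially encoded counts, 20.1%.

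BMAL1 (ENSG00000133794.19, chr11:13276652-13387266), the partner of CLOCK, was the steadiest member. Its levels were 11.8 and 11.4 CPM in normoxia and 12.8 and 6.47 CPM in hypoxia in A2058. The A375 libraries gave 12.4 and 9.14 CPM in normoxia and 7.60 and 14.5 CPM in hypoxia. The SKMEL-5 libraries gave 11.9 and 10.1 CPM in normoxia and 9.01 and 14.7 CPM in hypoxia. The 3 libraries that stood apart were the 3 lowest of the 12, and their partners the 3 highest. Over the 3 lines the log2 difference (hypoxia minus normoxia) was -0.04 ± 0.28 (SE, n = 6 libraries against 6) for BMAL1, with an edgeR quasi-likelihood adjusted p = 0.977, and -0.40 ± 0.37 for CLOCK, with adjusted p = 0.573. Without the 3 libraries that stood apart the differences were 0.31 for BMAL1 and 0.04 for CLOCK, so that both signs turned.

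The PER genes, repressors of CLOCK and BMAL1, were highest in the libraries that stood apart. PER1 (ENSG00000179094.16, chr17:8140472-8156506) was at 35.4 and 35 CPM in A2058 normoxia and at 35.1 and 139 CPM in hypoxia. Its A375 values were 36.0 and 28.7 CPM in normoxia and 602 and 37.6 CPM in hypoxia. In SKMEL-5 they were 36.4 and 26.0 CPM in normoxia and 194 and 39.5 CPM in hypoxia. Outside the 3 libraries that stood apart, PER1 lay between 26.0 and 39.5 CPM in all lines and in both oxygen conditions. Against the normoxic mean of its line PER1 was 3.94-fold, 18.6-fold and 6.21-fold in the libraries that stood apart (A2058, A375, SKMEL-5) and 0.996-fold, 1.16-fold and 1.27-fold in their partners.

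PER2 (ENSG00000132326.12, chr2:238244038-238290102) was a low gene, at 3.80 and 9.20 CPM in A2058 normoxia and 9.75 and 15 CPM in hypoxia. The values in A375 were 2.72 and 4.05 CPM in normoxia and 31.3 and 5.57 CPM in hypoxia, and those in SKMEL-5 were 3.54 and 3.75 against 21.2 and 4.94 CPM. Unlike PER1 and PER3, PER2 had both hypoxic libraries above both normoxic ones in every line, although in the partner libraries by only 1.36-fold to 1.65-fold over the normoxic mean. PER3 (ENSG00000049246.14, chr1:7784320-7845177) was at 7.95 and 14.4 CPM in A2058 normoxia and 18.2 and 26.2 CPM in hypoxia. The A375 libraries held 3.78 and 3.32 CPM in normoxia and 33.8 and 2.82 CPM in hypoxia, and the SKMEL-5 libraries 2.06 and 4.11 against 37.0 and 4.06 CPM. In A375 and SKMEL-5 the partner library was within or below the normoxic range, and in A2058 both hypoxic libraries were above it.

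PER3 shares 868 exon bases, 10.7% of its exon length, with UTS2 on the opposite strand, and the strand setting of the counting is not given in the sources used here. UTS2, a vasoactive peptide gene, was at 13.1 to 197 CPM in A2058 and at no more than 0.134 CPM in the other lines. Reads of the 2 genes cannot be told apart in the shared bases. UTS2 was highest in A2058 normoxia 1, where PER3 was lowest among the A2058 libraries. Across lines in normoxia, PER3 was higher in A2058 (7.95 and 14.4 CPM) than in A375 and SKMEL-5 (2.06 to 4.11 CPM). The part of UTS2 reads in the PER3 values was not tested.

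NR1D1 and NR1D2, the repressors of BMAL1, differed in how far they moved. NR1D1 (ENSG00000126368.6, chr17:40092787-40100725) was at 14.4 and 15.5 CPM in A2058 normoxia and 17.1 and 120 CPM in hypoxia. In A375 the gene was at 32.6 and 29.2 CPM in normoxia and 728 and 36.2 CPM in hypoxia. The SKMEL-5 levels were 24.2 and 25.5 CPM in normoxia and 356 and 41.3 CPM in hypoxia. Both hypoxic libraries of each line were above both normoxic ones, by 1.14-fold to 1.66-fold over the normoxic mean in the partners and by 8.04-fold, 23.5-fold and 14.3-fold in the libraries that stood apart. NR1D1 shares 263 exon bases (9.49%) with THRA, the thyroid hormone receptor alpha gene, on the opposite strand. THRA was also higher in the library that stood apart than in its partner in every line, 1.72-fold, 1.34-fold and 1.13-fold (A2058, A375, SKMEL-5), where NR1D1 was 7.04-fold, 20.1-fold and 8.63-fold higher.

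NR1D2 (ENSG00000174738.13, chr3:23945260-23980618) was at 8.36 and 22.3 CPM in A2058 normoxia and 23.9 and 40.3 CPM in hypoxia. In A375 and SKMEL-5 its normoxic values, 55.5 and 46.3 CPM and 29.4 and 58.1 CPM, spanned or exceeded the partner libraries at 45.1 and 41.3 CPM. The libraries that stood apart were at 138 CPM in A375 and 109 CPM in SKMEL-5. They were thus 2.5-fold to 2.70-fold over the normoxic mean in all 3 lines, a narrower span than for NR1D1.

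DBP (ENSG00000105516.11, chr19:48630030-48637438), the D-box activator at the output of the loop, was the member with the largest gap between hypoxic libraries in each line. It was at 27.0 and 8.37 CPM in A2058 normoxia and 16.1 and 157 CPM in hypoxia. The A375 values were 7.90 and 4.57 CPM in normoxia against 348 and 7.32 CPM in hypoxia, and the SKMEL-5 values 14.8 and 5.2 against 129 and 11.2 CPM. In the partner libraries DBP was between the 2 normoxic values of its line, 0.907-fold, 1.17-fold and 1.12-fold of their mean, so that in no line were both hypoxic libraries above both normoxic ones. DBP also differed within normoxia, where replicate 1 exceeded replicate 2 by 1.69, 0.78 and 1.5 on the log2 scale. SPHK2, a sphingosine kinase gene on the opposite strand that shares 661 exon bases (10.1%) with DBP, was lower in the libraries that stood apart (13.8, 27.3 and 26.4 CPM) than in their partners (34.9, 48.4 and 43.1 CPM).

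**Figure D2:**
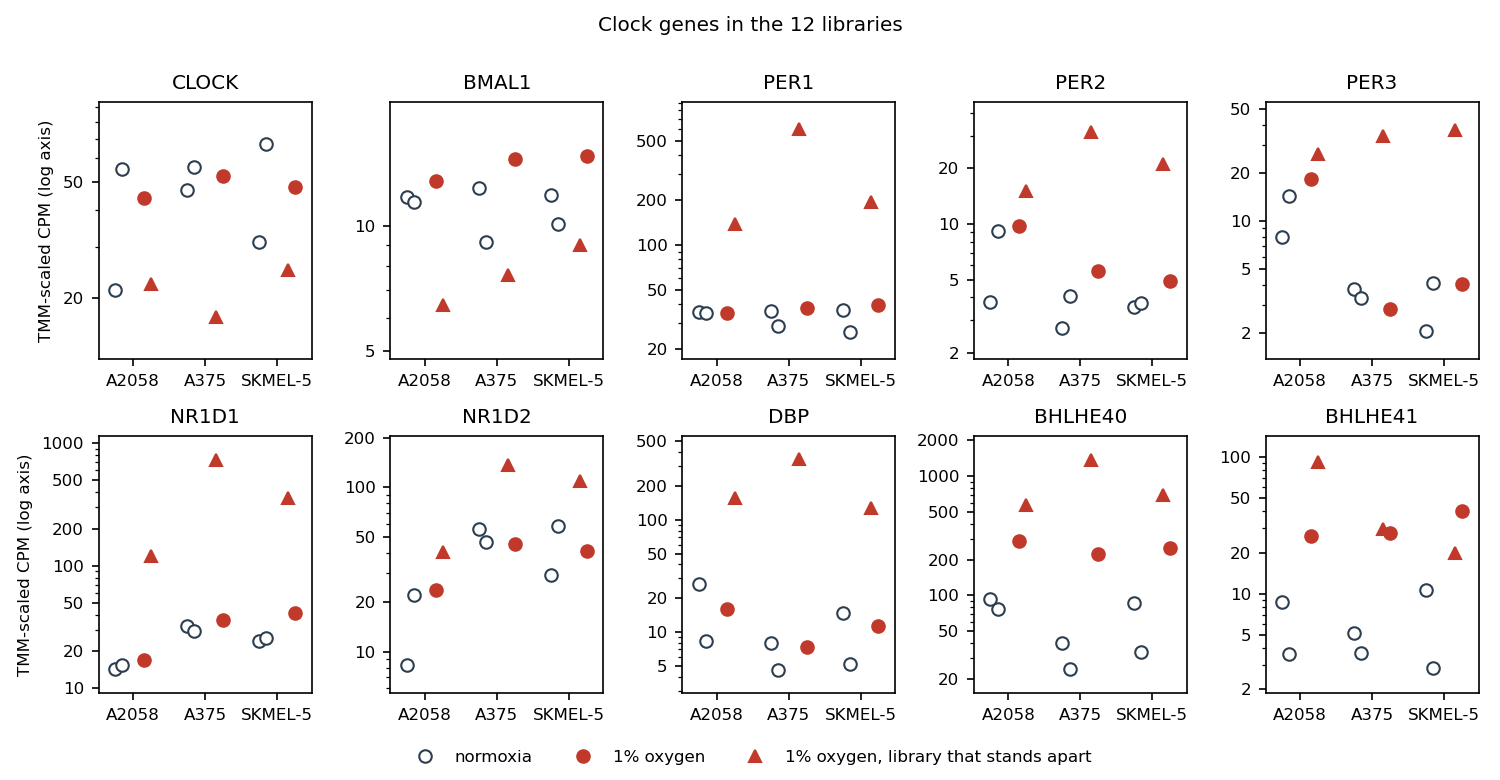
TMM-scaled CPM of the 10 clock genes in all 12 libraries, on log axes that differ between panels, by line. Open circles are normoxic libraries, filled circles and triangles hypoxic ones, with triangles for the libraries that stood apart. PER1 lies between 26.0 and 39.5 CPM outside the triangles, whereas all hypoxic points of BHLHE40 and BHLHE41 lie above all normoxic ones.

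BHLHE40 and BHLHE41, the E-box repressors, rose with 1% oxygen. BHLHE40 (ENSG00000134107.5, chr3:4979116-4985323) was at 92.4 and 76.5 CPM in A2058 normoxia and at 284 and 578 CPM in hypoxia. The A375 libraries gave 39.6 and 23.9 CPM in normoxia and 1374 and 222 CPM in hypoxia. The SKMEL-5 libraries gave 86.1 and 33.3 CPM in normoxia and 697 and 249 CPM in hypoxia. The lowest hypoxic library, at 222 CPM, was above the highest normoxic one, at 92.4 CPM. The partner libraries were 3.36-fold, 6.97-fold and 4.17-fold of the normoxic mean and the libraries that stood apart 6.84-fold, 43.2-fold and 11.7-fold.

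BHLHE41 (ENSG00000123095.6, chr12:26120026-26125127) was lower throughout. Its values were 8.62 and 3.63 CPM in A2058 normoxia and 26.4 and 92.5 CPM in hypoxia. In A375 they were 5.15 and 3.65 CPM in normoxia and 29.6 and 27.8 CPM in hypoxia, and in SKMEL-5 10.7 and 2.87 against 19.7 and 40.4 CPM. All 6 hypoxic libraries were above all 6 normoxic ones. Both genes also differed within normoxia, with replicate 1 the higher in every line. For BHLHE41 the log2 difference was 1.24, 0.49 and 1.88 (A2058, A375, SKMEL-5), and for BHLHE40 it was 0.27, 0.73 and 1.37. The library that stood apart was the higher hypoxic one in A2058, near its partner in A375 and the lower in SKMEL-5, so that BHLHE41 was the 1 member with no common direction between the hypoxic libraries.

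Counted over the 10 genes, the libraries that stood apart were above all 9 others for 6 members (PER1, PER2, PER3, NR1D1, DBP and BHLHE40), where 6.07% of all tested genes had this order, and below all others for BMAL1 alone, where 7.86% did. Complete separation of 6 hypoxic above 6 normoxic libraries held for 2 members, BHLHE40 and BHLHE41, against 1.45% of all genes. Separation within each line held in all 3 lines for 4 members (PER2, NR1D1, BHLHE40 and BHLHE41) against 4.86%, and no member lay below in every line, against 2.79%. The library that stood apart exceeded its partner at least 2-fold in every line for PER1, NR1D1, DBP and BHLHE40, 4 of 10 against 3.71% of all genes, and no member was lower by that much in every line, against 4.95%. These counts describe libraries that were in view when the genes were chosen.

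The size of the gap between hypoxic libraries differed among members. On the log2 scale (library that stood apart minus partner, in A2058, A375 and SKMEL-5) it was 3.28, 5.56 and 3.52 for DBP. It was 2.81, 4.33 and 3.11 for NR1D1 and 1.98, 4.0 and 2.29 for PER1. A375 had the widest gap for each of these genes. PER3 gave 0.52, 3.56 and 3.17 and PER2 0.62, 2.48 and 2.09, with A2058 well below the other lines. The gap for NR1D2 was 0.75, 1.61 and 1.40, for CLOCK -0.98, -1.60 and -0.94 and for BMAL1 -0.98, -0.93 and -0.71, against a median of all genes of 0.00, -0.08 and -0.08. Against the normoxic mean of its line, 8 of 10 members were at least 2-fold higher in each library that stood apart, where 16.7%, 19.7% and 17.8% of all genes were, and 2 of 10, BHLHE40 and BHLHE41, in each partner, where 8.31%, 4.77% and 7.93% were.

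**Figure D3:**
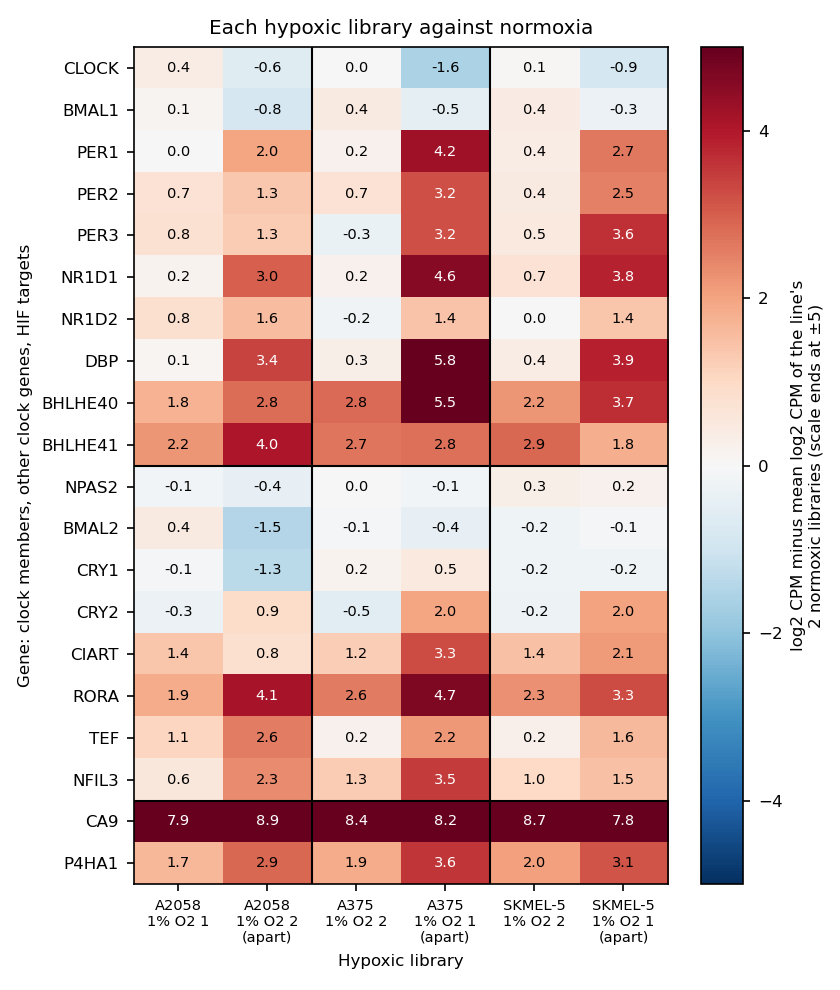
Each hypoxic library against the normoxic libraries of its line, as log2 CPM minus the mean log2 CPM of the 2 normoxic libraries, for the 10 clock genes, 8 other clock genes and the HIF targets CA9 and P4HA1. Colours end at 5 in either direction. The partner libraries are close to 0 for PER1, NR1D1 and DBP, whereas BHLHE40, BHLHE41, RORA and the HIF targets are high in all 6.

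In the model over all 12 libraries, 2 of 10 members rose over the 3 lines and none fell, where 0.978% of tested genes rose and 0.143% fell. BHLHE40 rose by 3.33 ± 0.50 on the log2 scale (SE), 10.05-fold, with an edgeR adjusted p = 0.0133, and was higher in 6 of 6 hypoxic libraries. BHLHE41 rose by 2.71 ± 0.44, 6.55-fold, with adjusted p = 0.0187. The remaining positive differences did not pass in edgeR: DBP 3.31 ± 0.92 (adjusted p = 0.109), NR1D1 2.94 ± 0.74 (0.0836), PER1 2.17 ± 0.62 (0.113), PER3 2.03 ± 0.62 (0.132), PER2 1.74 ± 0.48 (0.108) and NR1D2 0.90 ± 0.38 (0.238). DESeq2 called 7 of 10 members higher, where it called 5.65% of all genes: besides BHLHE40 and BHLHE41 these were NR1D1 (adjusted p = 0.000302), PER1 (0.00432), PER2 (0.00704), PER3 (0.00938) and DBP (0.0123), while limma-voom called BHLHE40 and BHLHE41 alone. In edgeR, DBP had nearly the log2 difference of BHLHE40 with a wider standard error. The median log2 difference of the 10 members was 2.10 against 0.02 over all tested genes, and 8 of 10 had an unadjusted p under 0.05, as had 3723 of 19636 genes (19%).

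In edgeR the calls of BHLHE40 and BHLHE41 depended on single libraries. The adjusted p of BHLHE40 reached up to 0.0887 and the call was lost on leaving out any 1 of the 6 normoxic libraries, and that of BHLHE41 reached up to 0.117 on leaving out A2058 hypoxia 2, A2058 normoxia 2, either A375 normoxic library or SKMEL-5 normoxia 2, while the log2 differences stayed within 2.72 to 3.63 and 2.33 to 3.13. Without the 3 libraries that stood apart, BHLHE40 differed by 2.18 (adjusted p = 0.082) and BHLHE41 by 2.43 (adjusted p = 0.123). The same fit gave 0.16 for PER1, 0.56 for PER2, 0.23 for PER3, 0.36 for NR1D1, 0.10 for NR1D2 and 0.06 for DBP. With A2058 and A375 alone the adjusted p was 0.0529 for BHLHE40 and 0.0579 for BHLHE41, where 0.173% of genes rose, and with A2058 and SKMEL-5 alone it was 0.109 and 0.0772, where 0.122% rose. On leaving out A375 hypoxia 2, a partner library, edgeR called 7 members higher, where 3.94% of all genes were.

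**Figure D4:**
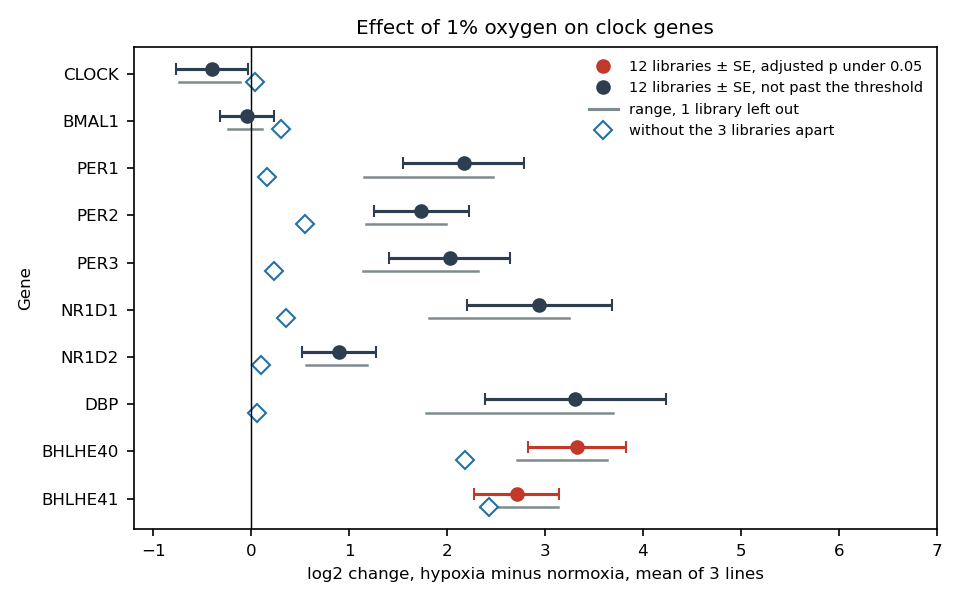
Log2 difference between hypoxia and normoxia, averaged over the 3 lines, for each clock gene. Filled circles with bars are the estimate ± SE from 12 libraries (red where the adjusted p was under 0.05), grey lines the range with 1 library left out at a time, and diamonds the estimate without the 3 libraries that stood apart. For DBP the estimate is 3.31 and the diamond 0.06, and for BHLHE41 they are 2.71 and 2.43.

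Within single lines edgeR called none of the 10 members, where it called 0.0102% of genes in A2058 and 0% in A375 and SKMEL-5. At an unadjusted p under 0.05 there were 2, 6 and 4 members (A2058, A375, SKMEL-5), against 9.16%, 5.6% and 6.53% of all genes. DESeq2 called 1, 2 and 1 members, against 1.82%, 0.545% and 0.611% of all genes. With limma-voom no member was called, against 0.0509%, 0% and 0%. BHLHE40 differed by 2.35 ± 0.83 on the log2 scale for A2058, 4.65 ± 0.91 for A375 and 2.99 ± 0.85 for SKMEL-5, and BHLHE41 by 3.28 ± 0.77, 2.71 ± 0.76 and 2.15 ± 0.74. DBP differed by 2.29, 4.83 and 2.81 and PER1 by 1.3, 3.31 and 1.90. An F test of whether the oxygen difference was equal in the 3 lines gave an adjusted p of 1.00 for each member in edgeR, with 0% of genes called and 315 at an unadjusted p under 0.05. The smallest unadjusted p among members was 0.155, for BHLHE40.

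Between lines, with oxygen conditions averaged, NR1D2 was lower in A2058 than in the mean of A375 and SKMEL-5, by -1.5 ± 0.43 on the log2 scale (edgeR adjusted p = 0.0202). It was the 1 member called in a contrast where 33.7% of all genes were called and 16.5% were lower in A2058, so that this share is not above the background. The call was lost without A2058 normoxia 1 (adjusted p = 0.0945), without A2058 hypoxia 1 (0.0843) and without the 3 libraries that stood apart (0.0599). PER3 differed by 0.98 ± 0.61 (edgeR adjusted p = 0.252) over all libraries and by 2.13 without the 3 that stood apart. The difference was 1.65 without A375 hypoxia 1 and 1.56 without SKMEL-5 hypoxia 1, fits that leave 1 library in a group. With no low-count filter edgeR called PER3 higher in A2058 (adjusted p = 0.0175), where 7793 of 37389 genes were called. PER3 shares 10.7% of its exon length with UTS2, which was at 13.1 to 197 CPM in A2058 and at no more than 0.134 CPM in the other lines. The part of UTS2 reads in this contrast was not tested. NR1D1, at -1.45 ± 0.78 over all libraries (adjusted p = 0.182), differed by -1.01 without the 3 libraries and by -1.69 without A375 hypoxia 2. With no low-count filter edgeR called NR1D1 lower in A2058 as well (adjusted p = 1.24e-05). In the contrast of A375 with SKMEL-5 edgeR called none of the 10, and none had an unadjusted p under 0.05 (0.0102% of all genes were called).

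Among 9 other core clock genes, 1 rose and none fell over the 3 lines, where 0.978% of tested genes rose and 0.143% fell. The median log2 difference of the 9 was -0.04. RORA, the receptor that activates BMAL1, rose by 3.40 ± 0.57 on the log2 scale (adjusted p = 0.0218). It was at 0.154 and 0.138 CPM in A2058 normoxia and at 0.652 and 3.28 CPM in hypoxia. In A375 its levels were 2.48 and 0.900 CPM in normoxia and 38.8 and 9.36 CPM in hypoxia, and in SKMEL-5 6.61 and 2.15 against 36.7 and 18.6 CPM. RORA was thus higher in both hypoxic libraries of every line, and highest in the one that stood apart. Its call was lost on leaving out A2058 hypoxia 2 or any normoxic library, and its adjusted p was 0.177 without the 3 libraries that stood apart.

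The cryptochromes, which act with the PER proteins, did not pass: CRY1 differed by -0.16 ± 0.25 (adjusted p = 0.757) and CRY2 by 0.96 ± 0.48 (adjusted p = 0.296). CRY2 was at 12.8, 26.6 and 21.9 CPM in the libraries that stood apart and at 4.60 to 5.49 CPM in their partners, while CRY1 was at 6.38, 28.4 and 20.7 CPM against 15.1, 22.5 and 20.7 CPM. CIART, a repressor of CLOCK and BMAL1, differed by 1.84 ± 0.44 (edgeR adjusted p = 0.0714) and passed in DESeq2 (0.000951). NPAS2, which can stand in for CLOCK, differed by -0.04 ± 0.18 (adjusted p = 0.937) and BMAL2 by -0.28 ± 0.37 (adjusted p = 0.706).

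D-box factors other than DBP were TEF, an activator, and NFIL3, the opposing repressor, while HLF was below the filter. Of the 2 tested, neither passed in edgeR, though both had an unadjusted p under 0.05 (19% of all genes) and were called higher in DESeq2 (5.65% of all genes). In edgeR NFIL3 differed by 1.84 ± 0.44 (adjusted p = 0.0740) and TEF by 1.52 ± 0.40 (adjusted p = 0.0932). TEF was at 36.2, 33.2 and 22.0 CPM in the libraries that stood apart and at 13.0, 8.52 and 8.57 CPM in their partners. NFIL3 was at 82.6, 76.7 and 23.0 CPM against 24.2, 16.3 and 16.6 CPM. Both were thus higher in the library that stood apart in each line, by smaller factors than DBP.

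For the lists that follow, the shares over all tested genes were 19% with an unadjusted p under 0.05 and 0.978% higher in edgeR. DESeq2 called 5.65% higher. Of 9 tested genes for clock kinases and ubiquitin enzymes none passed in edgeR (1 had an unadjusted p under 0.05, and DESeq2 called 1), with a median of 0.20, and PRKAA2, a catalytic subunit of AMPK, had the smallest p (0.94 ± 0.20, edgeR adjusted p = 0.0553). Of 9 clock output genes 4 had an unadjusted p under 0.05 in edgeR, and DESeq2 called 3 (KLF10, KLF11 and TSC22D3). In edgeR 1 rose, TSC22D3 (GILZ), by 1.83 ± 0.38 (adjusted p = 0.0491), and the median was 0.68. This call was kept in only 3 of 12 fits with 1 library left out, those without A2058 hypoxia 1, A375 hypoxia 2 or SKMEL-5 hypoxia 2, with adjusted p up to 0.199 in the others, and limma-voom gave 0.0892. TSC22D3 is also the 1 of 7 tested glucocorticoid-induced genes that rose in edgeR. Of these 7, 3 had an unadjusted p under 0.05, and DESeq2 called 3 (DUSP1, PER1 and TSC22D3). That list holds PER1, and its other 7 genes summed to 172 to 372 CPM in the libraries that stood apart, 175 to 253 CPM in their partners and 193 to 345 CPM in normoxia. These ranges overlapped, but they are taken over all lines and do not show whether genes moved within a line. Within lines, the median gap of the list's 7 tested genes, PER1 among them, between the hypoxic libraries was 0.87, 1.10 and 0.37 (A2058, A375, SKMEL-5). In every line 2 of these genes were at least 2-fold higher in the library that stood apart, and 1 was at least 2-fold lower. Of 13 immediate early genes, which serum and cyclic AMP switch on, none passed in edgeR, 3 had an unadjusted p under 0.05 and DESeq2 called 1, ATF3, both near the shares of all genes. Their median gap between the hypoxic libraries was -0.42, 1.81 and 0.79 on the log2 scale (A2058, A375, SKMEL-5), so that this list did not have the common direction of PER1, NR1D1 and DBP. The part of either list in the clock gene values was not tested.

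Of 16 HIF targets, a list that holds none of the clock members, 13 rose and none fell, where 0.978% of tested genes rose and 0.143% fell. Their median was 2.19, where the clock members had 2.10. The clock median rested on the libraries that stood apart. Against normoxia it was 1.77, 3.23 and 2.59 in these (A2058, A375, SKMEL-5) and 0.54, 0.26 and 0.43 in the partners. The summed level of the HIF targets was 1081 to 2058.1 CPM in normoxia, 5781 to 6673 CPM in the partners and 7163 to 13945 CPM in the libraries that stood apart. Within normoxia their median log2 difference, replicate 1 minus replicate 2, was 0.71, 0.15 and 0.63 (A2058, A375, SKMEL-5). Not all of the list had this direction, and SLC2A1 was lower in replicate 1 in every line. The cause of this normoxic difference was not tested. P4HA1, a collagen prolyl hydroxylase, rose by 2.67 ± 0.37 (adjusted p = 0.0110) and NDRG1 by 4.13 ± 0.56 (adjusted p = 0.0110). The median gap of the HIF targets between the hypoxic libraries was 1.11, 0.32 and -0.28, where that of the clock members was 0.89, 2.56 and 1.79. Among HIF subunits EPAS1 rose by 2.75 ± 0.48 (adjusted p = 0.0267), a call kept in 4 of 12 fits with 1 library left out and lost without any 1 normoxic library, A2058 hypoxia 2 or SKMEL-5 hypoxia 1 (adjusted p up to 0.134). Without the 3 libraries that stood apart EPAS1 differed by 1.58 (adjusted p = 0.161). In contrast to EPAS1, ARNT, at 0.61 ± 0.29, and HIF1A, at 0.48 ± 0.25, did not pass.

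The genes most like DBP over the 12 libraries were found by the root mean square difference of log2 CPM, centred within each line, over 11816 protein-coding genes. The nearest were MAST1 (0.505), PRR36 (0.576), NR1D1 (0.612), WIPF3 (0.620) and H2BC21 (0.640), against a median of 2.04 over all genes. PER1 ranked 15 on this measure (0.733), while BMAL1 (2.22) and CLOCK (2.55) were farther from DBP than the median gene. The genes nearest to BHLHE40 were RORA (0.426), P4HA1 (0.521), ASS1 (0.569), GPR160 (0.580) and SLC29A4 (0.621), against a median of 1.82. NR1D1 was thus the clock gene nearest to DBP and RORA the one nearest to BHLHE40, with BHLHE41 (0.938) at rank 79.

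Markers of other cell types were followed beside these values. Of 7 fibroblast markers none passed in edgeR (3 had an unadjusted p under 0.05, and DESeq2 called 2), and their summed level was 5.95 to 108 CPM in the libraries that stood apart, 7.07 to 64.4 CPM in their partners and 4.76 to 27.0 CPM in normoxia. The 5 blood cell markers summed to 1.18 to 6.20, 1.26 to 15.2 and 0.551 to 10.3 CPM in the same order. The 5 keratinocyte markers summed to 51.7 to 144, 54.6 to 78.6 and 43.3 to 103 CPM, and the 7 melanocytic markers to 850 to 7950, 858 to 2468 and 963 to 2575 CPM. Most of the keratinocyte sum was KRT10, at 51.4, 139 and 84.7 CPM in the libraries that stood apart (A2058, A375, SKMEL-5). Its log2 gap to the partners was -0.06, 1.19 and 0.50. KRT14 was lower than in the partner in every line, with gaps of -1.69, -1.83 and -2.90, so the sum does not describe both markers. The 7950 CPM was A2058 hypoxia 2, where PMEL was at 2946 and DCT at 2530 CPM, against 516 and 666 CPM in its partner. In such bulk RNA, fewer cells of a kind and less RNA per cell cannot be told apart. The part of other cells in the clock gene values was not tested.

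The printed elements can be set beside these values. BHLHE40 and BHLHE41, which rose in edgeR and DESeq2, each had an E-box, and so had PER1, which passed in DESeq2 only, and NR1D2, which passed in neither. PER2, NR1D1 and CLOCK had an E-prime box, and the first 2 were higher and CLOCK lower in the libraries that stood apart than in their partners. A D-box was found in PER1, PER3 and NR1D2, all of them higher in the libraries that stood apart. That direction held in every line for 7 of the 10 members, among them PER2, NR1D1, DBP and BHLHE40, whose windows had no D-box. DBP, with the largest gap between the hypoxic libraries, and BMAL1, which went the other way, had none of the searched letters in their windows.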

How the data were processed

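RNA-seq counts of 12 libraries (3 melanoma lines, 2 oxygen conditions, 2 libraries each) were analysed. The authors deposited raw counts per gene with no normalization. Per the submitters' processing notes, bcl2fastq 2.20, Trim Galore 0.6.1, STAR 2.5.0a and GRCh38 were used. How reads were counted (tool, strand, annotation) is not given in the sources used here. Of 60656 gene IDs 23267 had no count in any library, and 60401 were matched to a symbol. Positions and exon lengths came from GENCODE 29 and upstream sequences from RefSeq (GRCh38.p14).

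Counts were fitted in R 4.3.3 with edgeR 4.0.16 (quasi-likelihood test, TMM scaling, filterByExpr with minimum count 10 and minimum total 15, 6 groups, 6 residual degrees of freedom, common biological coefficient of variation 0.453). The contrasts were hypoxia minus normoxia in each line and averaged over lines, an F test between lines, and contrasts between lines. Benjamini-Hochberg adjustment ran over 19636 genes, with calls at an adjusted p under 0.05. The standard error is the log2 difference divided by the square root of its F statistic. Log2 CPM used a prior count of 2. The fit was tested on simulated data.

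The clock genes and all lists were chosen with earlier results of these data known. Of 105 list genes 1 had no matching symbol. Named genes were the 10 members, fixed clock and HIF genes, up to 4 called genes per direction of each list or else the gene of smallest p, and the 5 genes most like DBP and BHLHE40. Alternatives were DESeq2 1.42.0 and its size factors, limma-voom (limma 3.58.1), 2 other filters, a replicate block, pairs of lines, and leaving out each library. Leaving out the 3 libraries that stood apart was chosen after seeing the data.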

Additional observations from a re-analysis of the deposited data

How the results depend on the processing

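Over 3 lines edgeR called 220 genes. Other settings gave 1855 (no low-count filter), 91 (replicate block), 48 (A2058 and A375), 34 (A2058 and SKMEL-5), 1543 (DESeq2), 30 (without the 3 libraries that stood apart) and 15 to 1120 (leaving out 1 library). Members called higher were 2, with 8, 1, 0, 0, 7, 0 and 0 to 7 in that order. The scaling by DESeq2's size factors, the 1 CPM filter and limma-voom left 2. Calls in A2058 were 2, with 397 (no filter), 1 (1 CPM filter), 0 (replicate block), 10 (limma-voom), 357 (DESeq2), 0 (without the 3 libraries) and 0 to 13 (1 library left out). In A375 there were 0, with 384 (no filter), 107 (DESeq2) and 0 to 8, and in SKMEL-5 0, with 350, 120 and 0 to 1. The F test between lines gave 0, with 83 without the filter and 0 with any library left out, and was not run with DESeq2. The A2058 contrast gave 6623, with 5010 to 7353 on leaving out 1 library. The cause of these differences was not tested.

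Directions turned for genes that had not passed: BMAL1 (0.31 without the 3 libraries, -0.23 to 0.11 with 1 left out), CLOCK (0.0392), CRY2 (-0.39) and ARNT (-0.0670) without the 3 libraries, KRT10 (-0.15 with A2058 and SKMEL-5, -0.0271 without the 3 libraries), and, with 1 library left out, BMAL2 (-0.70 to 0.0204), NPAS2 (-0.12 to 0.0635) and CRY1 (-0.41 to 0.0175). Whether replicate numbers mark a shared batch was not tested. Within a line, the replicate differences of hypoxia and normoxia correlated across genes at -0.30, 0.23 and 0.26 (A2058, A375, SKMEL-5). Between A375 and SKMEL-5 the replicate differences correlated at 0.80 in hypoxia and 0.58 in normoxia. Under the replicate block BHLHE40 was called and BHLHE41 had an adjusted p of 0.066. With 2 libraries per group the spread of a gene has 6 residual degrees of freedom, to which edgeR added 5.02 prior degrees of freedom shared across genes.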
